A study of Mus musculus with 9 samples.

Results

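The early transcriptional response to doxycycline (Dox) in acute myeloid leukemia cells of the mouse was taken as the difference between 3 samples taken after 48 h of Dox and 3 untreated control samples. The comparison covered 22180 genes, each represented by 1 of the 41345 probe sets on the array: of the probe sets with exactly 1 gene symbol, the one with the highest mean over all 9 arrays of the series was taken. The cells, called MLL-AF9-OSKM, carry the MLL-AF9 fusion gene with a GFP tag and the 4 reprogramming factors Oct4, Sox2, Klf4 and c-Myc (OSKM) under the tetO promoter, which Dox switches on. Control and Dox-treated cells thus shared the fusion gene and the cassette and were grown in the same kind of host, C57BL/6J recipients that had been irradiated below the lethal dose. The Dox 48 h and Dox 72 h groups came from recipients given Dox in the drinking water for 48 h or 72 h, and control recipients were given none, so that an effect of Dox itself and an effect of OSKM cannot be told apart. Leukemia cells were sorted from the spleen, and each sample's RNA was read on 1 whole-transcript array, the Mouse Gene 2.0 ST of Affymetrix. Replicates are labelled biological with no mouse named for each, and p-values reflect only how far these samples lie from each other. The cassette was expressed in 1 leukemia line, and the cells on the arrays were those that remained in the spleen under Dox.

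MLL-AF9 leukemia resembles an arrested stage between a granulocyte-monocyte progenitor and a mature myeloid cell. Progenitors on the granulocyte path make the proteases and peroxidase of the primary granules, then the proteins of the secondary granules. Monocytes instead gain the receptor for CSF1, chemokine receptors, scavenger receptors and Toll-like receptors. Classical monocytes leave the marrow through CCR2 and enter inflamed tissue, and nonclassical monocytes, which in mice depend on the nuclear receptor NR4A1, crawl along the vessel wall. KLF4, besides its use in reprogramming, is known in mice as a transcription factor of monocytes.

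The arrays behaved alike in most respects and differed in a few gene groups. Correlations between arrays of a group lay between 0.995 and 0.996 in control and at 48 h, over all genes, and the median standard deviation of a gene over 3 arrays was 0.0926 and 0.0971 on the log2 scale. Control 3 stood apart from the other control arrays in genes of other blood cells. Its mean log2 signal over 20 immunoglobulin genes was 6.36, against 4.34 and 4.55 in control 1 and 2, and over 6 erythroid genes it was 5.15, against 3.79 and 4.05. The immunoglobulin group was chosen after values were seen. At 48 h the means of the immunoglobulin genes were 5.87, 5.07 and 4.95, all above control 1 and 2 and below control 3. By limma 0 of the 20 passed the threshold, with 1 at an unadjusted p under 0.05. Of the markers of 12 other cell types of spleen and blood, 1 passed the threshold at 48 h, Irf4 of the plasma cell list, which monocytes also express. The mean signal of the B cell, T cell and NK cell lists stayed between 3.77 and 4.66 on all 6 arrays, whereas Hoxa9 and Meis1, the genes that MLL fusions keep active, gave control signals of 9.62, 9.57, 9.61 and of 10.13, 10.21, 9.97. Ighm, an immunoglobulin heavy chain gene named after its values were seen, was also bright. It read 8.94, 9.17 and 10.76 in control and 11.08, 10.46 and 10.48 at 48 h and did not pass (adjusted p = 0.509). Because control 3 and, for interferon genes, Dox 48 h 3 differed from their group, counts of gene lists are also given without them where that moved a count by over 1.5 times, and for some other lists. Families added after values were seen were not recounted. Red pulp macrophage genes ranged from 5.52 to 6.37 in control and from 5.85 to 6.13 at 48 h, with 0 of 12 past the threshold by limma and 2 at an unadjusted p under 0.05. The part of these other cells in the changes below was not tested.

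At 48 h, 394 genes were higher and 160 were lower than in control. The test was a linear model with moderated variances over all 9 arrays (limma), with a Benjamini-Hochberg adjusted p under 0.05 over all probe sets as the threshold, and "rose" and "fell" below refer to it. The 394 genes were 1.78% and the 160 genes 0.721% of those tested, together 2.50%. The median log2 fold change was 0.82 among genes that rose, with an interquartile range of 0.57 to 1.23, and -0.69 among genes that fell, with -0.96 to -0.52, beside -0.01 over all genes. Changes were larger upwards than downwards: 142 genes rose by over 1 on the log2 scale and 25 by over 2, whereas 35 fell by over 1 and 5 by over 2. The smallest change called was 0.32 in either direction. Because the arrays hold RNA of sorted bulk samples, fewer cells of a type and less RNA per cell cannot be told apart for any gene below.

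**Figure D1:**
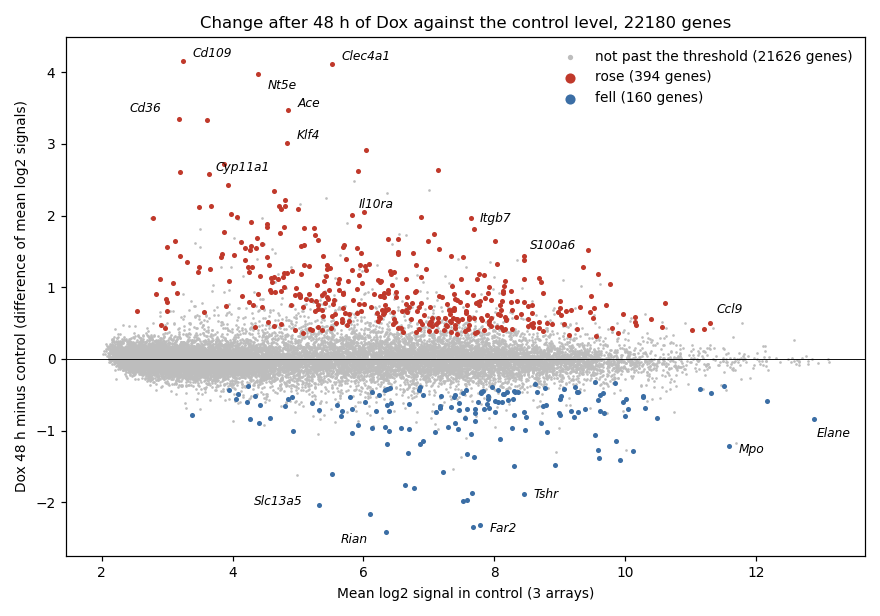
Each point is 1 of 22180 genes, with the mean log2 signal of the 3 control arrays on the x axis and the difference of mean log2 signals, Dox 48 h minus control, on the y axis; red marks the 394 genes that rose, blue the 160 that fell and grey the 21626 that did not pass the threshold. Cd109, Clec4a1 and Nt5e stand at the top, with control means of 3.24, 5.52 and 4.39, and genes that fell lie mostly at mid to high control levels.

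Calls were unevenly spread over control levels. With the genes split by control signal into 4 bins of like size, 11 of 5546 genes with a signal up to 3.09 rose and 0 fell. Between 4.15 and 6.76, 184 rose and 43 fell, and above 6.76, 172 rose and 113 fell. The genes that rose had a median control signal of 6.40 and those that fell of 7.71. Of the 394 genes, 381 were protein coding, and of the 160, 149 were. Averaged over the genes that rose, the signal was 6.40, 6.44 and 6.43 in control and 7.41, 7.42 and 7.44 at 48 h. The genes that fell averaged 7.62, 7.65 and 7.76 in control and 6.86, 6.87 and 6.86 at 48 h. These means describe genes chosen by the same contrast.

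When each of the 9 arrays was left out in turn, the count of rises lay between 188, without Dox 48 h 2, and 422, without Dox 72 h 3, and that of falls between 54 and 175, without the same arrays. A total of 163 rises and 44 falls passed the threshold in all 9 of these fits, and each called gene named below that did not is given with its number of fits. The fits without a Dox 72 h array kept all control and Dox 48 h arrays. A low number of fits can come from these alone, as for Clec12a (3 of 9 fits). Called members named beyond the 4 with the smallest p in a list were named after their values were seen. Without control 3 the counts were 268 and 74, and without Dox 48 h 3 they were 225 and 58.

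Of the 4 factors of the cassette, Klf4 alone passed the threshold. Its log2 signal was 4.73, 5.13 and 4.63 in control and 7.92, 7.88 and 7.74 at 48 h, a log2 fold change of 3.02 ± 0.129 (SE, adjusted p = 3.1e-05). The lowest Dox array lay more than 2 log2 units above the highest control. Pou5f1, which encodes Oct4, read 4.83, 4.26 and 4.69 in control and 4.91, 5.13 and 4.83 at 48 h, and the groups met at 4.83. Sox2 stayed between 2.81 and 2.99 on all 6 arrays, at the 19.5th percentile of mean signal among genes. Myc read 8.11, 8.22 and 8.53 in control and 8.29, 8.12 and 8.04 at 48 h, and the groups overlapped. Adjusted p for these 3 genes was 0.522, 0.954 and 0.81. The position of their probes was not analysed here, so that transcripts of the cassette and of the chromosomal gene cannot be told apart, and the values do not show that the other 3 factors were not induced.

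The KLF family, zinc finger factors that bind GC-rich and CACC sequences, changed beyond Klf4. Of 17 members, 5 rose and 2 fell, beside 2.50% of all genes that passed in either direction, and the median over the family was 0.10. Klf3, a repressor that competes with other KLF factors, read 6.58, 6.99 and 6.83 in control and 8.06, 8.23 and 8.04 at 48 h, a rise of 1.31 ± 0.13 (adjusted p = 0.00299). Klf10, first known as a gene induced by TGF-beta, read 7.28, 7.40 and 7.40 in control and 8.07, 8.03 and 8.0 at 48 h, a rise of 0.68 ± 0.0863 (adjusted p = 0.0086). For both genes every Dox array lay above every control array. Klf7 fell from 6.52, 6.35 and 6.40 to 5.77, 5.87 and 5.81 (log2 fold change -0.61 ± 0.0818, adjusted p = 0.0106). Named after their values were seen, Klf8 (0.86, 1 of 9 fits) and Klf12 (0.83, 5 of 9 fits) also rose, and Klf5 (-0.66, 8 of 9 fits), an activator of growth genes in epithelia, fell. The other 10 members, among them Klf2, Klf6 and Klf13, did not pass. Without control 3 or without Dox 48 h 3 the counts were 3 and 2 in place of 5 and 2.

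**Figure D2:**
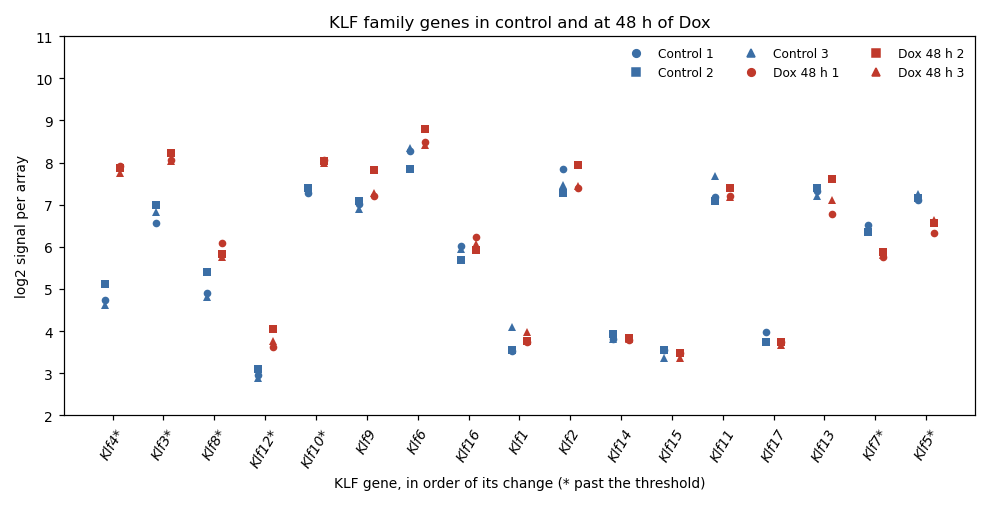
Log2 signal of the 17 KLF genes on each control array (blue) and each Dox 48 h array (red), with the marker shape giving the replicate number and genes ordered by their change from Klf4 on the left to Klf5 on the right. Starred genes passed the threshold, and the step of Klf4 is the only one above 2 log2 units.

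Promoters of the changed genes were searched for the letters that KLF factors bind. Of the 22180 genes, 16990 had a promoter in the RefSeq table (assembly GRCm38.p6), 300 bases from 250 before to 50 after a start site, and some genes had several. The KLF motif GGGNGTGG, on either strand, stood in 27.7% of 426 promoters of genes that rose, in 22.8% of 171 promoters of genes that fell and in 19.8% of all 20611 promoters. In the 10503 promoters of genes that did not pass but had a signal in the upper part of all genes, split at the median, the share was 22.7%. In the same order, the mean GC content of these 4 groups was 59.1%, 60.1%, 56.4% and 60.6%. The letters also fit sites of SP factors. The interferon response element, GAAA, then 2 letters of any kind, then GAAA, stood in 5.87% of the promoters of risen genes, 3.51% of fallen genes, 3.30% of all genes and 3.03% of the genes of higher signal that did not pass. For the same 4 groups, in the order of risen, fallen, all and not passed, the PU.1 motif GAGGAAGT gave 5.16%, 4.09%, 2.97% and 3.20%. The C/EBP motif TTGCNNAA gave 12.2%, 12.9%, 10.3% and 7.94%, the octamer ATGCAAAT of Oct4 gave 1.88%, 0.585%, 1.61% and 1.24%, and the SOX motif ACAANGG gave 14.3%, 15.2%, 12.5% and 10.8%. The E-box CACGTG of MYC gave 6.34%, 5.85%, 8.07% and 10.3%, and the NR4A motif AAAGGTCA gave 0.469%, 1.75%, 1.39% and 0.924%. All motifs were searched on both strands, the shares were not tested, and a match is a run of letters, not a bound site.

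Predicted genes and small RNAs left out, of the 15 genes with the largest rises 13 had a promoter in the table and 3 held the KLF motif, Pgap1, Cd59a and Grhl3, and of the 15 with the largest falls 11 had one and 5 held it, among them Far2. These 4 windows are printed so that the match can be read in a promoter of either direction, and that of Ifit1, an interferon-induced gene that rose in 3 of 9 fits, is printed for the interferon element. They are written 5′ to 3′ on the strand of the gene, with each match in capitals. The Cd59a window, chr2:104095551-104095850 on the plus strand, held 3 matches, those of Pgap1 (chr1:54557635-54557934, minus strand), Grhl3 (chr4:135573583-135573882, minus strand) and Far2 (chr6:148047166-148047465, plus strand) held 1 each, and that of Ifit1 (chr19:34640639-34640938, plus strand) held 2 matches of the interferon element.
Cd59a: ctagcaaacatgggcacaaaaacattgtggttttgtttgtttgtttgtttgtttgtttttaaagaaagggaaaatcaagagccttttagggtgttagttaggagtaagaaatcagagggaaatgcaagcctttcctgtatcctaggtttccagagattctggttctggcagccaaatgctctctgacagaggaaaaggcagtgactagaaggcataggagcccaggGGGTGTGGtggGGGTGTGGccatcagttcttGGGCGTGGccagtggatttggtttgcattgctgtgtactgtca
Pgap1: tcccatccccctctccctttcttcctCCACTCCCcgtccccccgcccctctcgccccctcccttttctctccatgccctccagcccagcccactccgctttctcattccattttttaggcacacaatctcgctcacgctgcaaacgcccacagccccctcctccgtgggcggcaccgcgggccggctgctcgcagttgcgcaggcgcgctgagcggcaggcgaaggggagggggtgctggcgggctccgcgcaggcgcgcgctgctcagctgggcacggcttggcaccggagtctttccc
Grhl3: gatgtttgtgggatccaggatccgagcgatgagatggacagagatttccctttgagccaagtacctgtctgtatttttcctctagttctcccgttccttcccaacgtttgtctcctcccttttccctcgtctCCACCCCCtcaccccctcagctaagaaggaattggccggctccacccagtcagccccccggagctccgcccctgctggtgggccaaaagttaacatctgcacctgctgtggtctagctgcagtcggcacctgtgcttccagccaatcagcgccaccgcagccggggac
Far2: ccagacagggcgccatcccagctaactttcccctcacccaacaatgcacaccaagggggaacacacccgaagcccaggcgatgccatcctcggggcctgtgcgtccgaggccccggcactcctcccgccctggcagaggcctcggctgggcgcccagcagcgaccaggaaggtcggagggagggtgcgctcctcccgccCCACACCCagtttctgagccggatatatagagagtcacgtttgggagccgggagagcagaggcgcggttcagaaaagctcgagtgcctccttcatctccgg
Ifit1: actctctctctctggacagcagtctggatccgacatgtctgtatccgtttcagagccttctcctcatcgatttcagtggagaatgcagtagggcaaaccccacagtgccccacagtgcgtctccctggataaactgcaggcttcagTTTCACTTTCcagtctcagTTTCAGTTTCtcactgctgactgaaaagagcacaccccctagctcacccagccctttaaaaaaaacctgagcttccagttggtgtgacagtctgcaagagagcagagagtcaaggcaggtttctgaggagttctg

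The largest rises were those of surface proteins. Cd109 on chromosome 9, a protein tied to the membrane by a glycolipid (GPI) anchor that binds TGF-beta, read 3.26, 3.40 and 3.05 in control and 7.46, 7.29 and 7.44 at 48 h, which is 17.9-fold. This control signal was near the floor of the array and was not tested against background, so that the fold of Cd109 and its rank are approximate. The same holds for Cd36, Cd200r4, S1pr1, Pgap1 and Cyp11a1 below, with control means of 3.18, 3.19, 3.49, 3.61 and 3.64. Nt5e, the ectoenzyme CD73 that turns AMP into adenosine, read 4.31, 4.36 and 4.51 in control and 8.49, 8.48 and 8.13 at 48 h, 15.7-fold. In both genes the control arrays were close together, and every Dox array lay far above them. Ace, the angiotensin-converting enzyme, read 4.95, 4.73 and 4.86 in control and 8.20, 8.05 and 8.69 at 48 h. Cd59a, which blocks the membrane attack complex of complement and is also GPI-anchored, read 6.01, 5.99 and 6.10 in control and 8.83, 9.12 and 8.90 at 48 h. Pgap1, the deacylase that trims newly made GPI anchors in the endoplasmic reticulum, read 3.44, 3.62 and 3.78 in control and 6.62, 7.10 and 7.12 at 48 h, 10.1-fold. All of these groups were far apart, and each gene passed the threshold whichever array was left out. Among 25 ectoenzymes and GPI-anchored proteins 6 rose and 0 fell, the other 2 being Cd48 (0.92, 7 of 9 fits) and the urokinase receptor Plaur (0.54, 4 of 9 fits), and the median was 0.27. Among 25 genes that make or remodel the GPI anchor, Pgap1 alone rose and the median was -0.03. Piga, which starts anchor synthesis, read 6.71, 6.97 and 6.78 in control and 6.64, 6.45 and 6.39 at 48 h (adjusted p = 0.387).

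**Figure D3:**
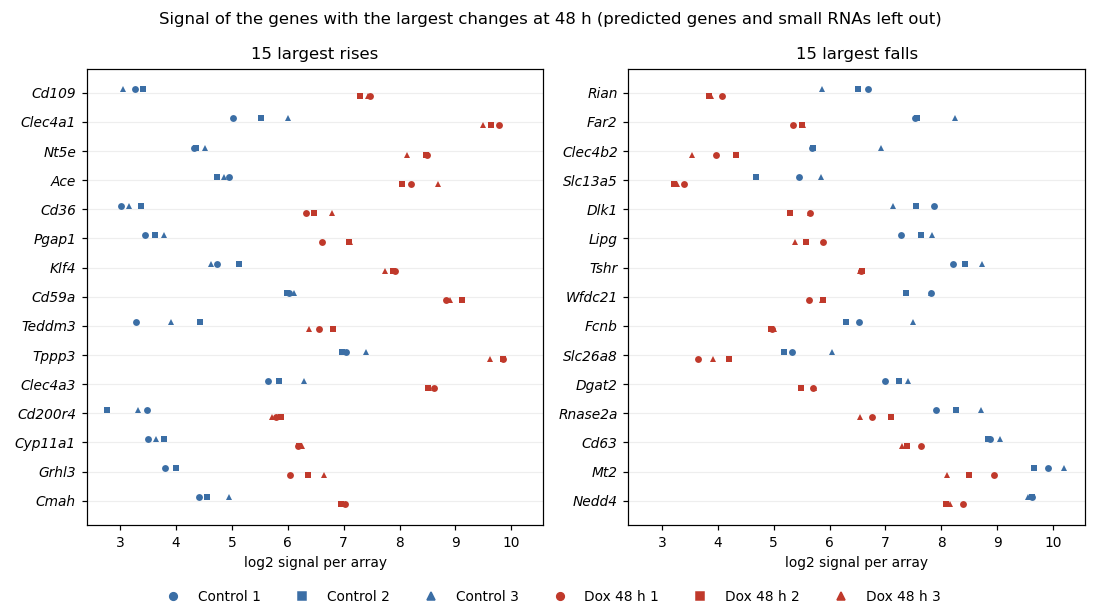
Log2 signal on each control array (blue) and each Dox 48 h array (red) for the 15 largest rises (left) and the 15 largest falls (right) among genes other than predicted genes and small RNAs, ordered by the change, with the marker shape giving the replicate number. Every gene was chosen for groups that do not overlap; control arrays are tight for most rises, and control 3 (triangles) is the highest control array for many falls.

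The remaining large rises came from several pathways. Cyp11a1, the first enzyme of steroid hormone synthesis, read 3.50, 3.78 and 3.64 in control and 6.18, 6.20 and 6.25 at 48 h, with a log2 fold change of 2.57 ± 0.0793. Its other probe set, of lower signal, differed by 0.07 (adjusted p = 0.892). Tppp3, a tubulin-binding protein, read 7.05, 6.97 and 7.39 in control and 9.85, 9.85 and 9.61 at 48 h. Grhl3, a transcription factor of epidermis, read 3.79, 3.99 and 4.0 in control and 6.04, 6.37 and 6.65 at 48 h. Each of these had all Dox arrays at least 2 log2 units above all control arrays. Teddm3 was less even in control, at 3.29, 4.42 and 3.90, and read 6.56, 6.81 and 6.38 at 48 h. Cmah, the hydroxylase that makes N-glycolylneuraminic acid, read 4.40, 4.56 and 4.95 in control and 7.02, 6.95 and 6.97 at 48 h. Across all genes 2156 (9.72%) had every Dox array above every control array and 1985 (8.95%) had every Dox array below.

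Genes of nonclassical monocytes were among those that rose. Of 21 nonclassical monocyte genes 10 rose and 0 fell, with a median of 0.79, and 10 rose as well without control 3 or without Dox 48 h 3. Of 17 classical monocyte genes 2 rose and 0 fell, with a median of 0.01, and the difference between the lists was not tested. Both lists, like the other gene lists here, were written with earlier results of these data known, and their counts are descriptive. The mean signal of the nonclassical list was 6.02, 6.13 and 6.24 in control and 7.27, 7.22 and 7.33 at 48 h. Cd36, the scavenger receptor for oxidised lipids, read 3.01, 3.37 and 3.15 in control and 6.32, 6.46 and 6.79 at 48 h. Nr4a1 read 7.18, 7.0 and 7.07 in control and 8.73, 8.89 and 8.86 at 48 h, a rise of 1.75 ± 0.0804 (adjusted p = 4.33e-05). The groups were separate in both genes and both calls held in all 9 fits. Other members that rose were Ace, Clec4a1, Clec4a3, Dusp5, Cd300ld, Itgal, Cd300e (8 of 9 fits) and Eno3 (7 of 9 fits). Cx3cr1, the fractalkine receptor that marks these monocytes, did not pass at 0.68, nor did Ceacam1 at 0.50. Of the classical list, Ccr2 read 8.0, 7.94 and 7.83 in control and 8.99, 8.81 and 8.96 at 48 h, a rise of 1.0 ± 0.0761 (adjusted p = 0.000819). Sirpb1c (1.08) rose too and passed in 2 of the 9 fits. Fn1, the matrix protein fibronectin, read 9.41, 9.05 and 9.54 in control and 9.87, 10.54 and 10.63 at 48 h, every Dox array higher, and did not pass (adjusted p = 0.0746). F13a1, the A chain of coagulation factor XIII, read 9.95, 10.07 and 10.02 in control and 8.41, 9.04 and 8.77 at 48 h, every Dox array lower, and did not pass either (adjusted p = 0.0783). Gsr, glutathione reductase, differed by -0.43 (adjusted p = 0.0751), and 8 of the 17 classical monocyte genes were lower, 6 of them with separate groups. Without control 3 or without Dox 48 h 3, 1 gene of this list rose.

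Genes shared by monocytes and macrophages followed at smaller sizes. Of 22 such genes 6 rose and 0 fell, with a median of 0.29. Csf1r, the CSF1 receptor, read 8.06, 8.20 and 8.20 in control and 9.20, 9.04 and 9.30 at 48 h, which is 2.03-fold. Ctss, a lysosomal protease, read 8.68, 8.73 and 8.75 in control and 9.95, 9.85 and 9.60 at 48 h. Cybb, the catalytic subunit of the phagocyte oxidase, read 10.54, 10.68 and 10.61 in control and 11.37, 11.44 and 11.34 at 48 h, with the call in 7 of 9 fits. Groups did not overlap for any of these genes. Cd14 (0.82, 4 of 9 fits), Lyz2 (1.04, 4 of 9 fits) and Cd68 (0.59, 3 of 9 fits) rose as well, and control 3 had the highest control value of Lyz2 and Cd68. Of 17 transcription factors of monocytes 4 rose, Nr4a1, Irf4, Irf8 and Cebpb, and 0 fell. Irf8, which directs progenitors to monocytes, read 7.47, 7.54 and 7.45 in control and 8.50, 8.12 and 8.23 at 48 h and passed in 4 of the 9 fits. Cebpb, needed in mice for nonclassical monocytes, rose by 0.53 ± 0.0651 (adjusted p = 0.00763), from 7.99, 7.93 and 7.87 to 8.48, 8.46 and 8.44. Without Dox 48 h 3 the counts were 3 of 22 and 3 of 17.

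Genes of the primary granule list fell. Of 13 measured, 7 fell and 0 rose, with a median of -0.76. Of all genes 0.721% fell, and of genes with a control signal above 6.76, 2.04% did. The 7 falls include Ms4a3 and the repressor Gfi1, which do not encode granule proteins. The list's mean signal was 9.29, 9.39 and 9.67 in control and 8.73, 8.64 and 8.68 at 48 h, with control 3 the highest. Elane, neutrophil elastase and the brightest gene that fell, read 12.82, 12.88 and 12.96 in control and 12.04, 11.998 and 12.12 at 48 h, a change of -0.84 ± 0.0657 (adjusted p = 0.000919). Prtn3, proteinase 3, read 12.10, 12.18 and 12.24 in control and 11.59, 11.60 and 11.58 at 48 h. Ms4a3, a gene of granulocyte-monocyte progenitors, read 10.001, 10.18 and 10.19 in control and 8.85, 8.83 and 8.84 at 48 h. These 3 genes fell in all 9 fits, whereas Mpo, myeloperoxidase (11.40, 11.58 and 11.78 against 10.52, 10.05 and 10.53), passed in 2 of 9. Fcnb (-1.80) and Rnase2a (-1.50) passed in 6 of 9. Gfi1, the repressor that directs progenitors to granulocytes, read 8.61, 8.70 and 9.13 in control and 7.76, 7.73 and 7.87 at 48 h (-1.02 ± 0.13, adjusted p = 0.00838). Without control 3, 6 of 13 genes of the list fell, and without Dox 48 h 3, 4 of 13.

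Genes of later neutrophil stages were mostly lower at 48 h. Of 21 measured, 5 fell and 1 rose, with a median of -0.42, and 17 had a lower mean and 4 a higher one. Wfdc21 read 7.82, 7.37 and 7.82 in control and 5.63, 5.88 and 5.87 at 48 h, so that it fell by 1.87 on the log2 scale, and the call held in all 9 fits. Ly6g, the surface marker of mature mouse neutrophils, rose from 4.97, 5.25 and 4.92 to 6.45, 6.04 and 6.21 (adjusted p = 0.00785). Both changes separated the groups. Csf3r, the receptor for G-CSF (-0.65, 3 of 9 fits), Lcn2, lipocalin 2 (-0.48, 1 of 9 fits), Olfm4 (-1.27, 1 of 9 fits) and Itgb2l (-0.52, 1 of 9 fits) fell less stably. Without control 3 the list had 1 rise and 1 fall, and likewise without Dox 48 h 3. Camp, a secondary granule peptide, read 6.90, 7.22 and 8.34 in control and 5.67, 6.28 and 6.41 at 48 h and did not pass (adjusted p = 0.176), with control 3 the highest value.

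Markers of immature cells were mixed, and the program of the fusion gene did not pass in any member. Kit, the stem cell factor receptor, fell from 7.51, 7.67 and 7.91 to 6.39, 6.34 and 6.27 (-1.36 ± 0.132, adjusted p = 0.00261), and Prom1, which encodes CD133, fell by 1.04 on the log2 scale and passed in 4 of 9 fits. Cd93 rose from 8.57, 8.49 and 8.51 to 9.03, 9.11 and 9.10. The other 15 of 18 stem and progenitor genes did not pass, and 1 rose and 1 fell without control 3 or without Dox 48 h 3. Of 17 targets of MLL fusions, 0 passed the threshold by limma, 2 had an unadjusted p under 0.05, and the median was -0.05. Myb, the member with the smallest p, read 11.15, 11.05 and 11.40 in control and 10.80, 10.66 and 10.89 at 48 h, lower on each Dox array, with an adjusted p of 0.12. Cdk6 read 11.48, 11.59 and 11.33 in control and 10.83, 11.29 and 11.19 at 48 h. Also 0 of 18 pluripotency genes and 0 of 17 epithelial genes of early reprogramming passed by limma, with 1 and 0 at an unadjusted p under 0.05. Both lists were dim, with a median percentile of mean signal of 33.9 and 40.1. Of 5545 genes with a control signal between 3.09 and 4.15, 27 rose and 4 fell. With so few calls at low signal, 0 calls in lists of this size say little about these genes.

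**Figure D4:**
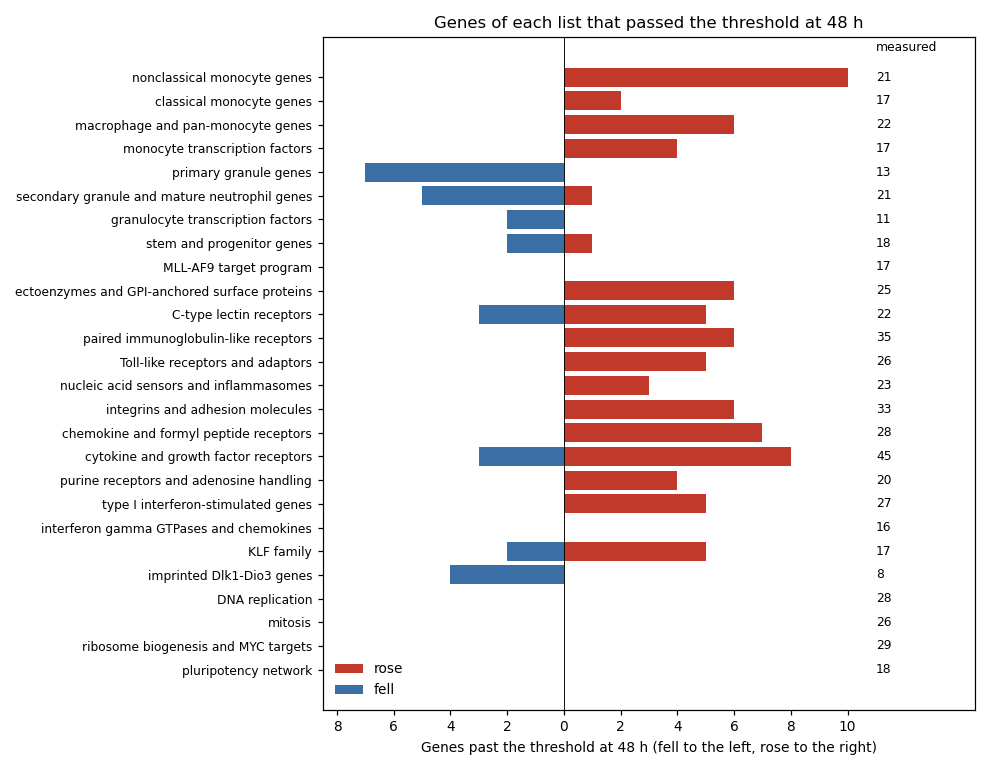
Number of genes of each list that rose (red, to the right) or fell (blue, to the left) at 48 h, with the number measured printed at the right. The nonclassical monocyte list has the most rises, 10 of 21, the primary granule list the most falls, 7 of 13, and lists of DNA replication, mitosis, ribosome biogenesis, pluripotency, interferon gamma genes and MLL-AF9 targets have 0. The falls of the primary granule list include Gfi1 and Ms4a3, which do not encode granule proteins. The lists were written with earlier results of these data known.

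C-type lectin receptors, which bind sugars and other ligands of microbes and dead cells, changed in both directions. Of 22, 5 rose and 3 fell. Clec4a1 read 5.01, 5.53 and 6.01 in control and 9.78, 9.63 and 9.50 at 48 h, 17.4-fold, and Clec4a3 read 5.65, 5.84 and 6.28 in control and 8.61, 8.51 and 8.53 at 48 h. Clec4n, which encodes dectin-2, read 4.49, 4.77 and 4.90 in control and 6.59, 6.17 and 6.69 at 48 h. These neighbouring genes rose with no overlap of the groups. Clec4b2, of the same gene cluster, fell from 5.69, 5.71 and 6.93 to 3.96, 4.33 and 3.53, a log2 fold change of -2.17 ± 0.419 that passed only without Dox 72 h 3 (adjusted p = 0.0497 with all arrays, up to 0.171 without one). Clec12a, an inhibitory receptor of myeloid cells, read 11.47, 11.48 and 11.59 in control and 11.10, 11.14 and 11.14 at 48 h and passed in 3 of 9 fits. With control 3 left out 4 genes of the list rose and 0 fell, and with Dox 48 h 3 left out 3 rose and 0 fell. Genes of this cluster are similar in sequence, and how far their probes are shared was not analysed.

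Paired receptors and sensors of microbes included rises, beside 1.78% of all genes that rose and 0.721% that fell. Of 35 paired immunoglobulin-like receptors 6 rose and 0 fell, with 4 rises when control 3 was left out and 3 when Dox 48 h 3 was. Cd200r4, an activating receptor, read 3.49, 2.77 and 3.32 in control and 5.79, 5.88 and 5.71 at 48 h, and Cd300ld read 8.55, 8.43 and 8.38 in control and 9.72, 9.82 and 9.96 at 48 h. Of 14 Fc receptors 0 passed by limma and 2 had an unadjusted p under 0.05, with a median of 0.00. Of 26 Toll-like receptors and adaptors 5 rose and 0 fell. Tlr8, an endosomal receptor for RNA, read 5.31, 5.16 and 5.47 in control and 6.70, 6.90 and 7.30 at 48 h. Tlr13, which in mice senses bacterial ribosomal RNA, read 8.19, 8.04 and 7.91 in control and 9.29, 9.52 and 9.28 at 48 h. The adaptor Ticam2 (1.57) and the TLR4 relative Cd180 (1.17) rose beside them, and the groups were separate in all 4 genes. Of 23 nucleic acid sensors and inflammasome genes 3 rose: Nlrc4, which assembles an inflammasome on bacterial flagellin, from 5.51, 5.30 and 5.49 to 6.50, 6.48 and 6.79, Mavs, the adaptor of RNA helicases, by 0.88, and Sting1, the adaptor for cyclic dinucleotides, by 0.94 with 2 of 9 fits. Without control 3, 6 of the 23 rose.

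Receptors for migration included rises. Among 28 chemokine, formyl peptide and related lipid receptors 7 rose and 0 fell, with a median of 0.07. Of all genes 1.78% rose and 0.721% fell. S1pr1, through which cells leave tissue toward sphingosine-1-phosphate, read 3.32, 3.42 and 3.74 in control and 5.56, 5.34 and 5.94 at 48 h, 4.35-fold. S1pr4 read 6.69, 6.92 and 6.95 in control and 7.65, 7.46 and 7.63 at 48 h, and S1pr5 (1.58, 6 of 9 fits), named after its value was seen, rose as well. Thus 3 of the 5 receptors of this family, which was picked after its values were seen, rose. S1pr2 and S1pr3 read -0.01 and -0.11. Cxcr4, the CXCL12 receptor that holds cells in the marrow, read 10.53, 10.61 and 10.57 in control and 11.06, 11.01 and 10.96 at 48 h and passed in 7 of 9 fits. Among 33 integrins and adhesion molecules 6 rose and 0 fell, and 2 did without control 3 or without Dox 48 h 3. Itgb7 read 7.61, 7.78 and 7.66 in control and 9.63, 9.55 and 9.32 at 48 h, 3.52-fold, with an adjusted p of 0.000139. Itgal, the alpha chain of LFA-1, rose by 0.79, and Selplg, the ligand of P-selectin and among the 5 brightest rises, by 0.40 in 3 of 9 fits.

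Cytokine receptors shifted with 8 rises and 3 falls among 45. Il10ra, the receptor chain for IL-10, read 5.68, 5.83 and 5.99 in control and 7.93, 7.68 and 7.90 at 48 h, 4.02-fold (adjusted p = 9.92e-05). Il13ra1 read 7.71, 7.68 and 7.09 in control and 8.52, 8.65 and 8.65 at 48 h and passed in 6 of 9 fits. With Csf1r up and Kit and Csf3r down, the receptors for 3 growth factors of blood cells moved in different directions, Csf3r in 3 of 9 fits. Igf1r, the receptor for IGF1, fell from 8.47, 8.50 and 8.45 to 7.18, 7.62 and 7.64, in 2 of 9 fits. With control 3 left out 4 rose and 1 fell, and with Dox 48 h 3 left out 2 rose and 1 fell.

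Genes of adenosine, TGF-beta, Notch and MAP kinase signaling included single large changes. Of 20 purine receptors and adenosine genes 4 rose. Besides Nt5e these were P2rx7, the ATP-gated channel that triggers the inflammasome (6.47, 6.42 and 6.33 in control, 7.39, 7.81 and 7.71 at 48 h), P2ry6 (0.75, 1 of 9 fits) and the nucleoside transporter Slc29a3 (0.83, 2 of 9 fits), whose other probe set differed by -0.16. Of 32 TGF-beta and BMP genes 3 rose, Cd109, Bmpr2 (0.68, 5 of 9 fits) and Smad3 (0.64, 1 of 9 fits), and the median was 0.00. Of 24 Notch genes 3 rose, the ligand Jag1 (1.11, 4 of 9 fits), the target Hes1 (0.88, 3 of 9 fits) and the glycosyltransferase Lfng (0.56, 7 of 9 fits). Jag1 read 2.92, 2.83 and 2.90 in control and 4.02, 4.26 and 3.69 at 48 h, near the floor of the array. Of 31 genes of MAP kinase feedback, the phosphatase genes Dusp5 (1.17) and Dusp16 (0.73, 2 of 9 fits) rose and Spry2 (-0.44) fell, which passed in 0 of the 9 fits. When control 3 or, separately, Dox 48 h 3 was left out, the counts of rises were 2 and 2 for adenosine genes, 2 and 1 for TGF-beta genes, 1 and 3 for Notch genes and 1 and 1 for MAP kinase feedback, whose count of falls was 0 in both.

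Genes of DNA replication and mitosis did not pass, and few genes of the G1 list rose. Of 28 DNA replication genes and 26 mitosis genes 0 passed by limma and 5 and 5 had an unadjusted p under 0.05, although 27 and 23 of them had a lower mean at 48 h, with medians of -0.13 and -0.12. Of 29 genes of ribosome biogenesis and MYC targets 0 passed by limma, 6 had an unadjusted p under 0.05, 24 were lower and the median was -0.12. Of 27 G1 cyclins and inhibitors 4 rose and 0 fell. The median of this list was 0.01, with 15 genes higher and 12 lower. Cdkn1b, which encodes p27, read 7.16, 7.28 and 7.31 in control and 7.80, 7.83 and 7.83 at 48 h (0.57 ± 0.0631, adjusted p = 0.00482). The groups were separate and the call held in all 9 fits. Tob1 (0.77, 4 of 9 fits), Rb1 (0.38, 2 of 9 fits) and Btg2 (1.58, 2 of 9 fits), which all slow entry into the cycle, rose less stably, and 1 of 27 rose without control 3 or without Dox 48 h 3.

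Lipid genes moved in both directions, with 3 of them among the largest falls. Of 39, 2 rose, Cd36 and Abca1, the exporter of cholesterol, and 3 fell, Far2, Lipg and Dgat2. Abca1 read 4.40, 4.29 and 4.46 in control and 5.87, 6.05 and 6.30 at 48 h. Far2, which makes fatty alcohols, read 7.53, 7.57 and 8.24 in control and 5.34, 5.51 and 5.53 at 48 h, and Dgat2, which makes triglycerides, read 7.0, 7.24 and 7.41 in control and 5.71, 5.50 and 5.72 at 48 h. Lipg, a lipase of lipoproteins, read 7.28, 7.63 and 7.83 in control and 5.88, 5.59 and 5.39 at 48 h. All 5 changes held in all 9 fits with no overlap of the groups. Of 22 eicosanoid genes 2 rose: Tbxas1, thromboxane synthase, from 4.78, 4.82 and 5.42 to 6.90, 7.22 and 7.18, 4.27-fold, and Ptgir, the prostacyclin receptor, by 0.75. Alox5 (1.25, adjusted p = 0.0877) did not pass.

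Transport, iron and redox genes included 15 called solute carriers among 361, 10 up and 5 down. This was 4.16% of the carriers, beside 2.50% of all genes, and their median was -0.01. Slc2a6, a hexose transporter, read 6.18, 6.01 and 5.85 in control and 8.14, 8.07 and 7.98 at 48 h, 4.14-fold. Slc11a1, the metal transporter NRAMP1 of phagosomes, read 6.13, 6.16 and 6.38 in control and 7.31, 7.27 and 7.38 at 48 h. Slc13a5, a citrate importer, fell from 5.45, 4.68 and 5.85 to 3.40, 3.21 and 3.27 and lost its call only without Dox 48 h 2 (adjusted p = 0.0505). Slc26a8, an anion transporter, fell by 1.602 on the log2 scale and passed in 6 of 9 fits. Without Dox 48 h 3, 3 carriers rose and 2 fell. Of 32 antioxidant and iron genes 4 rose and 2 fell, among them Steap4, a metal reductase (4.05, 3.94 and 3.50 in control, 5.31, 5.09 and 5.48 at 48 h), and Gpx3, a glutathione peroxidase (6.54, 6.38 and 6.82 in control, 5.71, 5.61 and 5.52 at 48 h). Gclm, a subunit of the enzyme that starts glutathione synthesis, fell by 0.76 on the log2 scale in 8 of 9 fits. Named after their values were seen, Alas1 (-0.69, 7 of 9 fits) and Fech (-0.74, 2 of 9 fits), the first and last enzymes of heme synthesis, were the 2 of 7 genes of that pathway that fell, with control 3 the highest control array. Mt2, a metallothionein, fell from 9.91, 9.67 and 10.21 to 8.95, 8.49 and 8.09 in 2 of 9 fits.

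The imprinted Dlk1-Dio3 region on chromosome 12 held the largest fall. Rian, a long noncoding RNA expressed from the maternal copy, read 6.68, 6.52 and 5.86 in control and 4.08, 3.85 and 3.88 at 48 h (adjusted p = 0.0013), and AF357425, a small RNA of the same region, read 7.98, 7.80 and 7.26 in control and 5.41, 5.31 and 5.29 at 48 h. Dlk1, the paternally expressed Notch-like ligand at the other end, read 7.87, 7.55 and 7.14 in control and 5.66, 5.29 and 5.66 at 48 h. Control 3 was the lowest control array in all 3, unlike in the granule genes. Of 8 genes of the region 4 fell and 0 rose, with a median of -1.19, and Meg3 (3.71, 4.11 and 3.42 in control, 3.33, 3.51 and 3.56 at 48 h) and Dio3 did not pass. Without control 3, 3 of 8 fell. Of 23 other imprinted genes 0 passed by limma and 2 had an unadjusted p under 0.05, with a median of -0.04.

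Other large falls were scattered over functions. Tshr, the receptor for thyroid-stimulating hormone, read 8.20, 8.43 and 8.74 in control and 6.57, 6.59 and 6.55 at 48 h (adjusted p = 0.000558). Cd63, a tetraspanin of granule and lysosome membranes, read 8.88, 8.84 and 9.06 in control and 7.64, 7.39 and 7.30 at 48 h. Nedd4, a ubiquitin ligase, read 9.62, 9.62 and 9.56 in control and 8.39, 8.09 and 8.15 at 48 h. The groups lay over 1 log2 unit apart in each, and all 3 calls held in all 9 fits. Arsb (-1.06) and Galc (-1.01, 4 of 9 fits), 2 lysosomal hydrolases named after their values were seen, fell as well.

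Several gene families held rises in related members. Of 20 Ms4a genes, tetraspan proteins clustered on chromosome 19, 5 rose and 1, Ms4a3, fell. Ms4a4c read 4.55, 4.41 and 5.18 in control and 7.15, 6.90 and 6.49 at 48 h, 4.39-fold, and Ms4a6b read 7.20, 7.18 and 7.64 in control and 9.03, 8.81 and 8.48 at 48 h. In both, control 3 was the highest control array and Dox 48 h 3 the lowest Dox array. Of 20 S100 proteins, small calcium-binding proteins, 3 rose: S100a6 (8.37, 8.67 and 8.32 against 9.73, 10.01 and 9.93), S100a4 (6.14, 6.11 and 5.99 against 7.27, 7.29 and 7.66) and S100a10 (9.36, 9.58 and 9.11 against 10.61, 10.56 and 10.72). The neutrophil protein S100a9 read 10.26, 10.39 and 10.35 against 9.61, 9.86 and 9.79 and did not pass (adjusted p = 0.0531). Of the annexins, which bind S100 proteins and membranes, 3 of 11 rose, Anxa5, Anxa6 and Anxa2 (4 of 9 fits), by 0.75, 0.63 and 0.57, and of the calpains, calcium-dependent proteases, 3 of 11 rose, Capn2 (1.42), Capn13 (1.64) and Capn5 (0.93, 5 of 9 fits). Annexins and calpains were picked after their values were seen. Of 54 serpins, protease inhibitors, 3 rose and 1 fell: Serpinb8 read 3.62, 3.91 and 3.46 in control and 5.76, 5.56 and 6.08 at 48 h, and Serpinb1a, which inhibits neutrophil elastase, read 10.42, 10.55 and 10.52 in control and 9.78, 9.55 and 9.69 at 48 h. Of 22 genes of the integrated stress response 3 rose, among them Nupr1 (5.82, 5.92 and 5.99 in control, 7.60, 7.38 and 7.37 at 48 h) and Cebpg (0.94). The median of this list was -0.03, with 9 genes higher and 13 lower. Of 33 circadian and nuclear receptor genes 3 rose and 2 fell, with Rara, the retinoic acid receptor alpha, at 0.92 and the clock gene Per3 at -0.61 (7 of 9 fits). The other fall was that of Tshr (-1.89), which is neither a clock gene nor a nuclear receptor. Of this list 1 rose and 2 fell without control 3, and 2 rose and 1 fell without Dox 48 h 3.

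Interferon genes were the group in which size and call parted. All 27 type I interferon-stimulated genes had a higher mean at 48 h, with a median of 0.90, and 5 of them rose. Their mean signal was 5.69, 5.79 and 6.45 in control and 7.37, 7.15 and 6.64 at 48 h, so that control 3 was nearest to the Dox arrays and Dox 48 h 3 nearest to the controls. Ifit1, whose product binds foreign RNA, read 4.41, 4.43 and 5.55 in control and 7.34, 7.12 and 6.34 at 48 h (2.13 ± 0.348, adjusted p = 0.0246, 3 of 9 fits). Oas3, a sensor of double-stranded RNA, read 5.82, 5.75 and 6.33 in control and 7.63, 7.65 and 7.05 at 48 h (7 of 9 fits), and Trim30a read 4.86, 5.07 and 5.12 in control and 5.94, 6.03 and 5.77 at 48 h. Without control 3, 10 of the 27 rose, and without Dox 48 h 3, 7 did. All 16 interferon gamma GTPases and chemokines were higher too, with a median of 1.20, and 0 passed by limma, with 8 at an unadjusted p under 0.05. Their mean was 4.82, 4.88 and 5.41 in control and 6.97, 6.33 and 5.27 at 48 h, so that Dox 48 h 3 lay below control 3. Without Dox 48 h 3, 1 of the 16 rose.

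**Figure D5:**
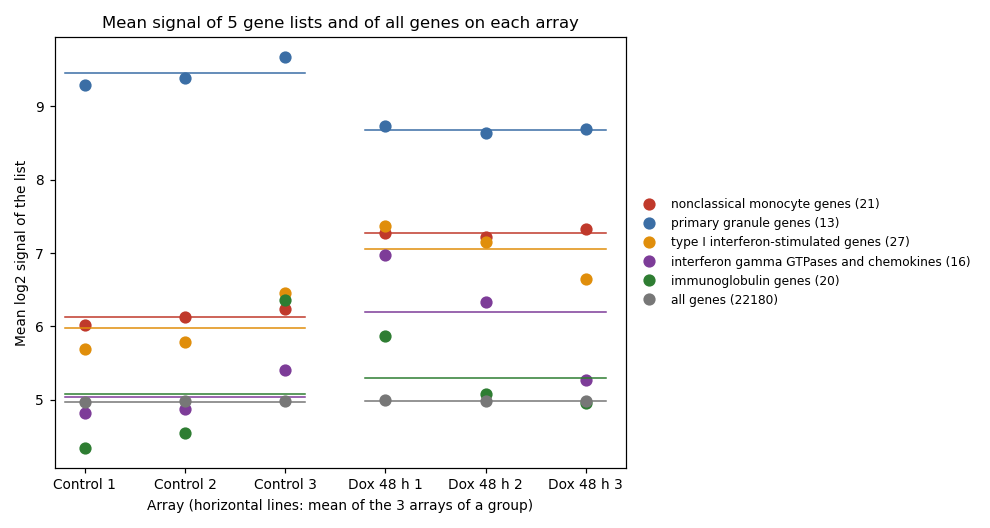
Mean log2 signal of 5 gene lists and of all 22180 genes on each of the 6 arrays, 1 point per array, with a horizontal line at the mean of the 3 arrays of a group and the number of genes in parentheses. The nonclassical monocyte and primary granule lists are tight at 48 h, whereas interferon and immunoglobulin genes spread over the arrays of a group, with control 3 high and Dox 48 h 3 low.

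Some large differences did not pass. A total of 49 genes differed by over 1 and 8 by under -1 without passing the threshold, and in 36 and 7 of them the groups did not overlap. In 37 of the 49, Dox 48 h 3 was the lowest of the 3 Dox arrays. Named after their values were seen, Oasl2 read 5.48, 4.83 and 7.26 in control and 8.98, 8.79 and 7.27 at 48 h (2.49, adjusted p = 0.142), and Irf7, the regulator of type I interferon genes, read 6.03, 6.17 and 7.11 in control and 8.39, 8.22 and 7.50 at 48 h (1.599, adjusted p = 0.0511). Gbp4, a GTPase induced by interferon gamma, read 2.70, 2.72 and 2.85 in control and 6.04, 5.03 and 3.11 at 48 h. The 3 Dox arrays of Gbp4 thus spanned nearly 3 log2 units, and did not pass (adjusted p = 0.638). Of 16 genes of MHC class I and the immunoproteasome 16 were higher, with a median of 0.42, and 0 passed by limma, with 7 at an unadjusted p under 0.05.

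Large families of low signal held few calls. Of 1105 odorant receptors and 289 vomeronasal receptors 0 passed by limma, with 33 and 13 at an unadjusted p under 0.05, and of 472 microRNA genes 1 did, Mir3068, at -0.64 and in 0 of the 9 fits. Of 73 small nucleolar RNAs, 60 cytosolic ribosomal proteins, 49 proteasome subunits and 42 subunits of complex I, families of high signal, 0 passed by limma as well, with 2, 3, 5 and 2 at an unadjusted p under 0.05. Where a called gene had several probe sets, 27 of 29 such genes had all of them in 1 direction, and in 5 all of them passed. The exceptions were Slc29a3 and Chka (2 of 9 fits).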

How the data were processed

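The deposited values are log2 signals, 1 per probe set and array of Mouse Gene 2.0 ST; the authors' methods describe RMA normalization with the oligo package, whereas the submitters' processing notes name MAS5, and no further scaling was applied. All 9 arrays entered 1 fit with a mean per group in limma 3.58.1 (R 4.3.3), empirical Bayes variances and Benjamini-Hochberg adjustment over all 41345 probe sets, two-sided, at 0.05. The procedure was tested on simulated data. Of the probe sets, 23521 had 1 gene symbol, 1820 several and 16004 were not listed. The number of arrays limits the precision. Genes were named from a rule: the 15 largest rises and falls with separate groups, predicted genes and small RNAs left out, the 5 brightest of each, the reprogramming factors, the 4 members of each described list with the smallest p, and the brightest markers. Members, lists and rule were chosen with earlier results of these data known, and 6 families and the lists without single arrays were added after values were seen. Alternatives were other normalizations, filters, fits and each array left out. Promoters are from RefSeq, GRCm38.p6. Where probes lie on their transcripts was not analysed.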

Additional observations from a re-analysis of the deposited data

Results flagged for a closer look

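For 26 named genes the change at 72 h differed from that at 48 h by limma's test of 72 h against 48 h (adjusted p under 0.05), always with a lower level at 72 h. Both times share the control arrays, and the test itself compares 3 Dox 72 h with 3 Dox 48 h arrays. Over all genes 65 passed (0.293%), 63 of them lower at 72 h. Of the 26, 24 had risen at 48 h, and they were chosen on the same 48 h arrays that enter the difference.

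Among surface proteins and enzymes the difference, 72 h minus 48 h on the log2 scale, was -3.14 for Cd109, -2.75 for Pgap1, -2.51 for Nt5e, -2.19 for Clec4a1, -1.47 for Cd59a, -1.31 for Cd36, -1.29 for Ace, -1.05 for Cd300ld and -0.96 for Cd14. Cd109 was still 1.02 above control at 72 h and Nt5e 1.46. Among regulators it was -1.05 for Klf4, -1.12 for Klf3, -0.72 for Klf10, -1.54 for Nr4a1 and -1.68 for Grhl3. Klf4 stayed 1.97 above control at 72 h, while Nr4a1 was at 0.21. The receptors S1pr1 (-1.48), Tlr8 (-1.28) and Tlr13 (-1.20), the transporters Abca1 (-1.40) and Slc2a6 (-0.83), and the serpins Serpinb8 (-1.86) and Serpinb3d (-1.52) were lower as well. So were Tppp3 (-2.54), Teddm3 (-1.88) and Cyp11a1 (-1.67). Fn1 (-2.62) and Tgfbr2 (-0.60) had not passed at 48 h. Groups of 3 arrays were not tested for outlying arrays.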

How the results depend on the processing

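Fitting the 6 arrays alone gave 237 rises and 89 falls in place of 394 and 160. Replicate numbers of different groups correlated between -0.283 and 0.208 and were not taken to pair the samples; with the replicate number as a block there were 215 rises and 59 falls, of which 208 and 57 were shared with the fit without it, and 7 of the named genes passed for 72 h against 48 h. Leaving out 1 array at a time gave 188 to 422 rises, 54 to 175 falls and 9 to 19 named genes for 72 h against 48 h. Sox2, which did not pass, ranged from -0.020 (without control replicate 3) to 0.066 (without Dox 48 h replicate 3) when 1 array was left out and changed sign also without Dox 48 h replicate 2 (-0.0017), and Slc29a3 did with its probe set of lowest mean (-0.16); the cause was not tested. Quantile normalization, median centring, a filter on dim probe sets, trend and robust variances, adjustment over genes alone and the lowest-mean probe set gave 378 to 492 rises and 121 to 192 falls. In all settings 154 rises and 35 falls were kept. How signal over background limits calls was not tested.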
